A study of Mus musculus with 5 samples.

Results

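Luminal-derived basal cells (LdBC) were compared with luminal cells, which share their GFP label but not their sorting gate. The comparison rests on 3 of the 5 libraries of the series, namely 2 of LdBC and 1 of luminal cells, chosen by their column in the deposited table. The other 2 libraries, of ordinary basal cells, lent their spread to the test and are given as a reference level. All cells came from mammary glands of adult virgin mice whose ovaries had been removed and that carried hormone pellets for 14 days. Every library was made from about 50 sorted cells that were lineage-negative and CD24-positive. Luminal cells were CD29low and GFP-positive, LdBC were CD29hi and GFP-positive, and basal cells were CD29hi and TdTomato-positive. The promoter behind the GFP label, the hormones in the pellets, the strain, and whether the libraries came from separate animals are not given in the sources used here. P-values therefore reflect how much these libraries varied, and that variation may be technical.

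The mammary duct has an inner luminal layer, made of secretory progenitors and of hormone-sensing cells that carry estrogen and progesterone receptors, and an outer basal layer. Basal cells make keratins 5 and 14 and rest on the basement membrane, and those that are myoepithelial contract through smooth muscle actin and myosin to expel milk. Hormone-sensing cells relay estrogen and progesterone to their neighbours through secreted factors such as amphiregulin and RANKL. The question of the comparison is what GFP-labelled cells carry in the basal gate that they do not carry in the luminal gate, and the reverse.

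LdBC contained abundant transcripts of some basal keratins, contractile genes and secreted basal products, such as Krt14, Acta2 and Chi3l1, that were at or near 0 in the luminal library. Other members of these lists, such as Myl6 (1848) and Cyr61 (1164), were abundant in the luminal library too. LdBC kept keratins 8 and 18, Epcam and the main claudins at about the luminal level. Genes of hormone-sensing cells, among them Calca, the luminal transcript second to B2m, were far lower in both LdBC libraries, and transcripts of milk proteins were higher. Values are FPKM, fragments scaled to transcript length and to sequencing depth, and differences are LdBC minus luminal on log2(FPKM + 1), which understates the change of low genes. In sorted pools such as these, fewer cells of a type and less RNA per cell cannot be told apart.

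The surface protein CD29 separated the gates, and CD24 was required in all of them. Itgb1, which encodes CD29, stood at an FPKM of 22.9 in the luminal library and 63.7 and 83.7 in LdBC replicates 1 and 2. Cd24a had 488 against 203 and 162, and neither difference passed. Of the markers given with the comparison, Chi3l1 and Krt14 stood high in LdBC, and Calca and Fxyd2 stood high in the luminal library. Of the basal markers, Trp63 and the contractile gene Oxtr were listed at 0 in LdBC replicate 1. Oxtr had 3.51 in the luminal library and 3.72 in LdBC replicate 2, and did not pass.

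The luminal library listed 8041 of 12293 genes above 0, against 9201 and 10627 in LdBC replicates 1 and 2. Depth was read from low values, where single fragments give steps. Among 75 genes between 0 and 0.2 FPKM in both the luminal library and LdBC replicate 1, 36 had a log2 ratio within 0.02 of 0.28, and 20 lay a whole log2 unit to either side. The luminal library was thus scaled to about 0.825 times as many fragments as LdBC replicate 1, and 0.821 times as many as replicate 2. It nevertheless listed at 0 350 genes whose FPKM reached 10 or more in both LdBC libraries, and 162 of them reached 10 in both basal libraries as well. Against this stood 183 genes with at least 10 in the luminal library that were listed at 0 in both LdBC libraries. An exact 0 can be a failed estimate, so such genes are described as listed at 0 and no fold of a single gene is given against it. List medians and counts by the fold rule, below, do take these genes in, at a log value of 0.

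Over 10626 genes with a mean FPKM of at least 1, limma with Benjamini-Hochberg adjustment called 219 genes higher in LdBC (2.06% of genes tested) and 207 lower (1.95%). The luminal group entered with 1 library, whose spread was taken to equal that of the LdBC and basal pairs. Of the 219, 116 were listed at 0 in the luminal library, and of the 207, 133 were listed at 0 in both LdBC libraries. The smallest adjusted p was 0.0116, and 209 of the 426 calls shared an adjusted p of 0.0440, close to the threshold of 0.05. Without any 1 of the 4 LdBC and basal libraries limma called 0 genes, with between 2127 and 4259 at an unadjusted p under 0.05. Of all calls 51.4% were higher in LdBC as deposited, but this share was 28% with a pseudocount of 5, 73.6% with a pseudocount of 0.1 and 62.4% with quantile normalization, so the balance of higher to lower calls depended on the scale. A second rule, with no test, asked for a difference of at least 2 log2 units from the luminal library in both LdBC libraries in the same direction. It held for 1454 genes higher (13.7%) and 1044 lower (9.82%), and is called the fold rule below. Of the 1454, 959 were listed at 0 in the luminal library and 495 were above 0 there. The median difference was 0.01 over all genes tested and -0.49 over the 6597 above 0 in the luminal and both LdBC libraries, and list medians are read against the value for the same kind of genes.

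**Figure D1:**
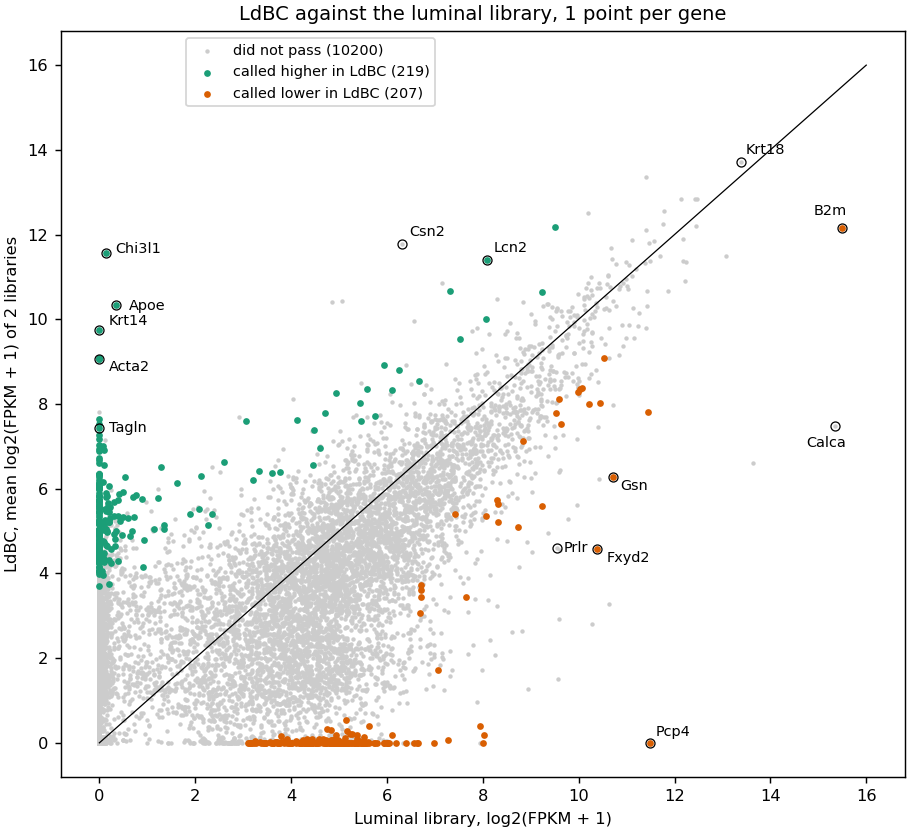
Each point is 1 of 10626 genes, with log2(FPKM + 1) in the luminal library on the horizontal axis and the mean log2(FPKM + 1) of the 2 LdBC libraries on the vertical axis. The line marks equal values. Green points (219) were called higher and orange points (207) lower by limma. Most calls lie on or near the axes, where 1 group was at or close to 0.

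Of the 5 basal keratins tested limma called 3 higher and 0 lower, where 2.06% and 1.95% of all genes were. Their median difference of 4.66 is the value of 1 gene listed at 0 in the luminal library, and the only member above 0 in all 3 libraries, Krt16, had 0.82. Krt14, the keratin that pairs with keratin 5 in basal cells (chromosome 11, 100203162 to 100207548, minus strand), was listed at 0 in the luminal library. LdBC replicates had 751 and 992, and basal libraries 2682 and 2206 (limma with Benjamini-Hochberg adjusted p = 0.0259). Krt17, a keratin of basal and stressed epithelia, was listed at 0 in the luminal library and had 349 and 835 in LdBC. Krt5 had 0 against 29.4 and 20.0. For these 3 genes the LdBC libraries lay between luminal and basal values and did not overlap with either. Krt15 had 17.2 in the luminal library, 0 in LdBC replicate 1 and 14.9 in replicate 2, and Krt16 had 31.3 against 53.4 and 58.9. Neither passed.

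Of 16 basal regulators tested, 3 were called higher and 0 lower, and 7 met the fold rule as higher (median difference 2.09). Of all genes 2.06% were called higher and 13.7% met that rule as higher. Snai2, which encodes the transcription factor Slug, was listed at 0 in the luminal library and had 36.6 and 49.2 in LdBC. Sox10, a transcription factor of neural crest and of mammary stem and progenitor cells, rose from 0.352 to 37.0 and 35.9 (difference 4.79, SE 0.41), above both basal libraries (22.7 and 29.7). Id2, an inhibitor of basic helix-loop-helix factors that is also in the hormone-sensing list below, rose from 7.32 to 178 and 210 (difference 4.55, SE 0.26). In basal cells it had 99.7 and 89.5. For all 3 the LdBC replicates were close to each other. Trp63, the gene of p63, the defining transcription factor of the basal layer, had 0 in the luminal library, 0 in LdBC replicate 1 and 3.57 in replicate 2, with 24.4 and 20.2 in basal cells. Id4 had 0, then 6.50 and 1.57, then 29.9 and 20.6. Neither Trp63 nor Id4 passed, so the gain was uneven among basal regulators. Id3 (190 against 21.7 and 60.6) and Tcf4 (11.3 against 2.28 and 6.52) were lower in both LdBC libraries and did not pass. Members that met the fold rule but did not pass included the ligand Nrg1 (0 against 9.04 and 14.1), the Notch ligand Dll1 (0.0456 against 6.29 and 8.05) and the receptor Lgr6 (0 against 13.5 and 6.34).

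Contractile genes were gained in part, with 6 of 23 tested called higher and 9 past the fold rule as higher (2.06% and 13.7% of all genes). Called lower were 0. The median difference was 2.09, and 1.47 over the 12 members above 0 in all 3 libraries. Serum response factor drives smooth muscle genes through the CArG box, so promoters of the list were searched for it. Of 21 members with a RefSeq promoter window (build GRCm38.p6, 250 bases before to 50 after the start), 3 held the strict form of the box on either strand. Of all 32851 windows 1.63% held it. The 3 are counted by gene, over any of its windows, and the 1.63% by window, so the counts are not like for like. These 3 were Myl9, Vcl and Myl6. The Myl6 window (chr10:128492960-128493259, minus strand) lies inside the gene as annotated in GENCODE M21 (128490860 to 128494145). The windows of Myl9 (chr2:156775214-156775513, plus strand) and Vcl (chr14:20929148-20929447, plus strand), both called higher, are shown 5′ to 3′ with the box in capitals, as the pair of gained contractile genes that carry it.
Myl9: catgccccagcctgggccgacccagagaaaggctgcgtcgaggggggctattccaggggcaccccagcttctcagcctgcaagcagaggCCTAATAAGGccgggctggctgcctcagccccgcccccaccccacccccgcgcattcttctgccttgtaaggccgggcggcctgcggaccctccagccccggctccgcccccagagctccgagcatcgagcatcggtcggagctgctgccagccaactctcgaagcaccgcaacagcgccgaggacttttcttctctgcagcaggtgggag
Vcl: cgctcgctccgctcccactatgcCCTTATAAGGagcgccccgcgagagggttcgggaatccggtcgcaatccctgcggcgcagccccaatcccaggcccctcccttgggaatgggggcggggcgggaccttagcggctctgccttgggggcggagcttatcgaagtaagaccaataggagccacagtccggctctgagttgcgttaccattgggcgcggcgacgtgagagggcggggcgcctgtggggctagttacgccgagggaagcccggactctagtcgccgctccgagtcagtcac
The match is a description of these letters and not evidence of binding.

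Acta2, smooth muscle actin (chromosome 19, 34241090 to 34255590, minus strand), was listed at 0 in the luminal library and had 349 and 820 in LdBC and 3941 and 3800 in basal cells. Tagln, an actin-binding protein of smooth muscle, had 0 against 172 and 172, with 1953 and 1878 in basal cells (limma with Benjamini-Hochberg adjusted p = 0.0252). Myl9, the regulatory myosin light chain, had 0 against 127 and 309. Cnn1, the smooth muscle calponin, had 0 against 38.4 and 117. In each case both LdBC values stood apart from the luminal library and below both basal libraries. Other members stood at about the basal level. Vcl, which encodes the adhesion protein vinculin, had 0.162 against 44.1 and 49.0, with 48.3 and 44.5 in basal cells (difference 5.35, SE 0.34), and Smtn (smoothelin) had 0.845 against 63.7 and 44.5, with 48.6 and 39.3. Myl6, with the box in a window inside the annotated gene, had 1848 against 1681 and 1879 and did not pass (difference -0.06, SE 0.18, of the other sign with either rescaling). Actg2 (0 and 39.4 in LdBC) and Myh11 (1.14 and 12.9), both listed at 0 in the luminal library, did not pass. Genes of actin-linked adhesion outside the list were among those the naming rule gave. Pdlim3, a LIM protein of actin filaments, was listed at 0 in the luminal library and had 523 and 537 in LdBC and 583 and 536 in basal cells (limma with Benjamini-Hochberg adjusted p = 0.0215). The focal adhesion genes Zyx (0.0658 against 142 and 102) and Trip6 (0.0944 against 59.9 and 49.5) rose by differences of 6.83 (SE 0.36) and 5.66 (SE 0.36). Lhfp, listed at 0 in the luminal library, had 54.5 and 57.7 and was called higher too.

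Secreted basal products were gained widely, with 7 of 21 called higher, 0 lower and 13 past the fold rule as higher (median difference 4.27, and 2.79 over the 10 members above 0 in all 3 libraries). Of all genes 2.06% were called higher and 13.7% met the fold rule as higher. Chi3l1, a secreted chitinase-like protein (chromosome 1, 134182176 to 134190181, plus strand, named Chil1 in GENCODE M21), had 0.0989 in the luminal library and 3053 and 3035 in LdBC, beside 3497 and 3053 in basal cells. Its difference was 11.44 (SE 0.18, limma with Benjamini-Hochberg adjusted p = 0.0116), the smallest p of the comparison. Apoe, the lipid carrier that was the most abundant transcript of basal cells, had 0.280 against 859 and 1916, with 7198 and 6393 in basal cells (difference 9.97, SE 0.55). LdBC thus matched basal cells in Chi3l1 and stayed below them in Apoe. The matrix proteins Mgp (0 against 130 and 261) and Ctgf (0 against 102 and 227) and the chemokine Cxcl14 (0 against 55.8 and 75.5) were called higher too. Fst, which encodes the activin antagonist follistatin, had 0.0689 against 93.9 and 93.8 (difference 6.47, SE 0.25). Thbs1 (thrombospondin) had 16.4 against 199 and 196 (difference 3.51, SE 0.20). Il17b (0 and 44.5 in LdBC) and Postn (0 and 74.7), both listed at 0 in the luminal library, were present in LdBC replicate 2 only and did not pass.

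**Figure D2:**
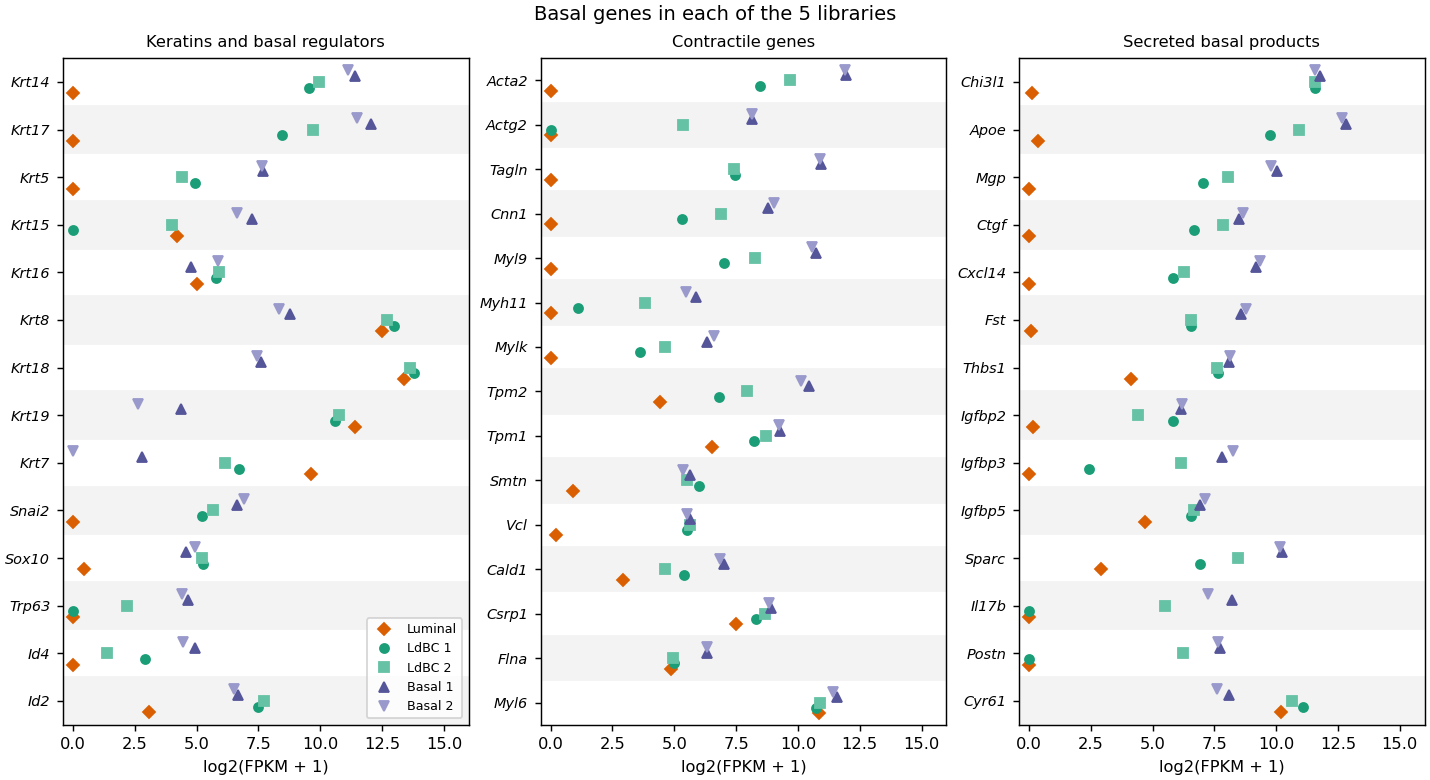
Expression as log2(FPKM + 1) in each of the 5 libraries for keratins with basal regulators, contractile genes and secreted basal products, with 1 symbol per library. A value of 0 means that the gene was listed at 0. For Krt14, Acta2, Tagln and Apoe the LdBC libraries lie between the luminal and basal libraries, while Krt8 and Krt18 lie close to the luminal library and Chi3l1 and Vcl close to the basal ones.

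Basement membrane and hemidesmosome genes, through which basal cells attach to laminin, gave 1 call higher and 0 lower among 19 tested. By the fold rule 4 were higher and 2 lower, where 13.7% and 9.82% of all genes were, so the counts stood near the background. The median difference was 0.78, but 0.00 in LdBC replicate 1 alone and 0.05 over the 11 members above 0 in all 3 libraries. The call was Fermt1, which encodes the integrin activator kindlin-1 (0 against 42.2 and 23.3, with 110 and 114 in basal cells). Sparc, a collagen-binding matrix protein, had 6.52 against 120 and 351 and did not pass (limma with Benjamini-Hochberg adjusted p = 0.0575). The integrin Itgb4 had 0.228 against 11.9 and 7.60. The 2 members lower by the fold rule were the laminin chain Lama5 (28.5 against 4.52 and 3.87) and the integrin Itga3 (34.0 against 7.23 and 6.0). Lamb3 had 14.4 in the luminal library, 0 in LdBC replicate 1 and 15.1 in replicate 2.

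Of the simple epithelial keratins that mark luminal cells, limma called 0 of Krt7, Krt8, Krt18 and Krt19, whose unadjusted p ranged from 0.0817 to 0.416. Krt18 had 10755 in the luminal library and 14101 and 12798 in LdBC, while basal libraries had 194 and 172 (difference 0.32, SE 0.17). Krt8 had 5708 against 8153 and 6685 (difference 0.37, SE 0.28), and the adhesion molecule Epcam had 2215 against 2303 and 1871 (difference -0.09, SE 0.22, of the other sign with either rescaling). These values lay within 1.5 times of each other across the luminal and LdBC libraries. Krt19 had 2735 against 1547 and 1729, and Krt7 had 780 against 105 and 69.5. Krt7 met the fold rule as lower but did not pass (difference -3.17, SE 1.33). Of the 13 keratin and adhesion genes, 1 was called, the desmosomal plakophilin Pkp3, which rose from 0.446 to 56.2 and 103 (difference 5.74, SE 0.57).

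Of 24 tight junction and polarity genes 0 were called by limma. Past the fold rule were 3 in each direction, near the background of 13.7% of all genes higher and 9.82% lower. The median difference was -0.60, but -0.12 without LdBC replicate 2, -0.11 after quantile normalization and -0.21 after median-of-ratios scaling. The claudins Cldn4 (1761 against 1962 and 3259), Cldn7 (498 against 617 and 708) and Cldn3 (1228 against 766 and 647) stayed within 2 log2 units of the luminal level. In basal cells Cldn4 had 140 and 103, and the other two lay lower. The fold rule was met as higher by Marveld3 (0 against 26.3 and 18.8), Tjp3 (0.104 against 14.5 and 19.3) and Pard6b (0 against 20.9 and 15). It was met as lower by Cldn8 (117 against 0 and 8.54), Marveld2 (92.0 against 10.5 and 20.1) and the splicing regulator Esrp1 (62.7 against 4.82 and 12.8). Outside the list, Grhl3, a transcription factor of epithelial barriers, had 99.6 in the luminal library and was listed at 0 in both LdBC libraries (limma with Benjamini-Hochberg adjusted p = 0.0440). Grhl1 (66.9 against 9.72 and 17.0) and Grhl2 (12.4 against 1.42 and 2.55), members of the list and of the same gene family, did not pass.

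Hormone-sensing genes were far lower in LdBC as a group. Of 21 tested, 16 met the fold rule as lower and 1 as higher, where 9.82% and 13.7% of all genes did, and the median difference was -4.26. Limma called 1 lower (Fxyd2) and 1 higher (Id2, also counted among the basal regulators), where 1.95% and 2.06% of all genes were. Calca, which encodes calcitonin and CGRP (chromosome 7, 114631478 to 114636357, minus strand), had 41755 in the luminal library, second to B2m, and 17.5 and 1721 in LdBC replicates 1 and 2. It was listed at 0 in both basal libraries. Both LdBC values lay far below the luminal one, but they differed from each other by 6.54 log2 units, and Calca did not pass (limma with Benjamini-Hochberg adjusted p = 0.180). Fxyd2, a regulator of the sodium pump (chromosome 9, 45399669 to 45410278, plus strand), had 1341 against 17.3 and 30.1 and was listed at 0 in basal cells. It fell by 5.81 (SE 0.52).

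Most receptors and relays of this lineage had the same order. Prlr, the prolactin receptor, had 743 against 7.41 and 68.6. Pgr, the progesterone receptor, had 31.2 against 0 and 0.863, and Esr1, the estrogen receptor, had 14.3 against 0 and 2.43. Foxa1, the pioneer factor for the estrogen receptor, had 78.7 against 0.529 and 5.04. The secreted mediators Areg (amphiregulin, 1378 against 25.9 and 211) and Tnfsf11 (RANKL, 164 against 0 and 9.72) and the coactivator Cited1 (482 against 9.63 and 66.3) were ordered alike, with the luminal library highest and LdBC replicate 1 lowest of the 3. None of these 7 passed. Members without this order were Ramp3 (0 against 0 and 22.2) and Pthlh (0 against 0 and 5.34), which were not lower in LdBC. In Cited4 (80.3 against 12.8 and 0) and Ly6a (519 against 75.1 and 47.9) LdBC replicate 1 exceeded replicate 2. Gata3, a transcription factor of luminal cells, had 110 against 32.8 and 58.0 and did not meet the fold rule. In 19 of the 21 members LdBC replicate 2 exceeded replicate 1, and in 10 by at least 2 log2 units, where 1535 of 10626 genes did. The summed FPKM of the list was 47867 in the luminal library, 391 and 2529 in LdBC and 213 and 193 in basal cells, and most of the luminal sum was Calca.

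Other genes lower in LdBC were abundant in the luminal library. Pcp4, a calmodulin-binding peptide (chromosome 16, 96467606 to 96525793, plus strand), had 2889 in the luminal library and was listed at 0 in both LdBC libraries, with 9.94 and 7.52 in basal cells. The choline transporter-like gene Slc44a4 (255), the folate receptor gene Folr2 (125), Chst5 (63.3), a sulfotransferase, and Fam183b (93.4) were listed at 0 in all LdBC and basal libraries. Gsn, the actin-severing protein gelsolin, fell from 1674 to 62.2 and 94.4 (difference -4.43, SE 0.34). Vill, a relative of villin, fell from 133 to 2.69 and 1.95 (difference -5.35, SE 0.58). Tm2d2 fell from 319 to 37.7 and 34.4 (difference -3.11, SE 0.25). Hist3h2ba (258 against 0.290 and 0), Enho (97.2, listed at 0 in both LdBC libraries) and O3far1 (54.4, likewise) were called lower. Gemin4 (23.2 against 0.0374 and 0.0371) and Tmem206 (22.9 against 0.0607 and 0.0601) were called lower too. The cysteine dioxygenase gene Cdo1 (1576 against 0.366 and 67.9) was far lower in both LdBC libraries but did not pass. B2m, the light chain of class I antigen presentation and the most abundant luminal transcript, fell from 46216 to 4271 and 4857 (difference -3.34, SE 0.32). The heavy chain gene H2-K1 had 1206 against 1201 and 920. Of 14 class I genes 1, B2m, was called lower and 0 higher, where 1.95% and 2.06% of all genes were. The median difference of the list was -0.41, but -0.064 after quantile normalization and -0.0051 after median-of-ratios scaling. Over the 12 members above 0 in all 3 libraries it was -0.67, where all such genes had -0.49. A decline of the list as a whole thus depended on the scale.

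Genes of milk secretion were high in LdBC. Of 20 tested, 12 met the fold rule as higher and 1 as lower, and limma called 4 higher and 0 lower (median difference 3.15, and 2.67 over the 13 members above 0 in all 3 libraries). Of all genes 13.7% and 9.82% met that rule, and 2.06% were called higher. The summed FPKM of the list was 4645 in the luminal library, 27514 and 31256 in LdBC, and 5121 and 4315 in basal cells. The 4 calls were Trf (transferrin, 723 against 4412 and 4821, difference 2.67, SE 0.25), Lcn2 (lipocalin 2, 270 against 3092 and 2356, difference 3.32, SE 0.23), Plin2 and Spp1. Plin2, which coats lipid droplets, rose from 60.0 to 526 and 440 (difference 2.98, SE 0.23). Spp1, the secreted phosphoprotein osteopontin, was listed at 0 outside LdBC, where it reached 81.0 and 182.

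The caseins stood higher in both LdBC libraries but did not pass. Csn2 (beta-casein) had 78.2 against 2341 and 5232, Csn1s1 had 28.1 against 904 and 2056, Csn1s2a had 32.3 against 612 and 3136, and Csn3 had 141 against 2629 and 1298. For these 4 genes the basal libraries differed from each other by more log2 units than the LdBC pair did (731 and 11.8 for Csn2), and that spread entered the test. Lalba, which encodes the lactose synthase subunit alpha-lactalbumin, had 0 against 31.1 and 60.0. Expi, a whey acidic protein family member, had 2724 against 10613 and 10246. Stat5a, the prolactin-activated transcription factor of alveolar cells, had 31.7 against 15.9 and 17.9 and did not pass.

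Luminal progenitor genes, which mark the secretory branch of the luminal layer, gave 2 calls higher and 0 lower among 20 tested. Past the fold rule were 4 as higher and 1 as lower, near the background of 13.7% and 9.82% of all genes. The median difference of the list was 1.33, and 0.70 in LdBC replicate 2 alone. The calls were Tspan8, a tetraspanin (0 against 71.0 and 90.9), and Lbp, a lipopolysaccharide-binding protein (0 against 51.3 and 30.4). Cd14 had 93.3 against 1106 and 896 and did not pass (limma with Benjamini-Hochberg adjusted p = 0.0595). The receptor Kit had 0 against 14.4 and 4.36 and was listed at 0 in basal cells. Elf5, the transcription factor that specifies alveolar cells, had 9.94 against 45.8 and 27.9 and was listed at 0 in basal cells (difference 1.75, SE 0.61). Of the 20, 12 lay above the luminal library in both LdBC libraries and 5 below it, where 35% and 41.7% of all genes did. Abundant members were among the 5, namely Elf3 (443 against 94.9 and 164) and Slpi (1008 against 244 and 449). The others were Aldh1a3 (17.4 against 0 and 5.11), Bmpr1b (14.4 against 0 and 2.41), which met the fold rule, and Itga2. None of the 5 passed.

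**Figure D3:**
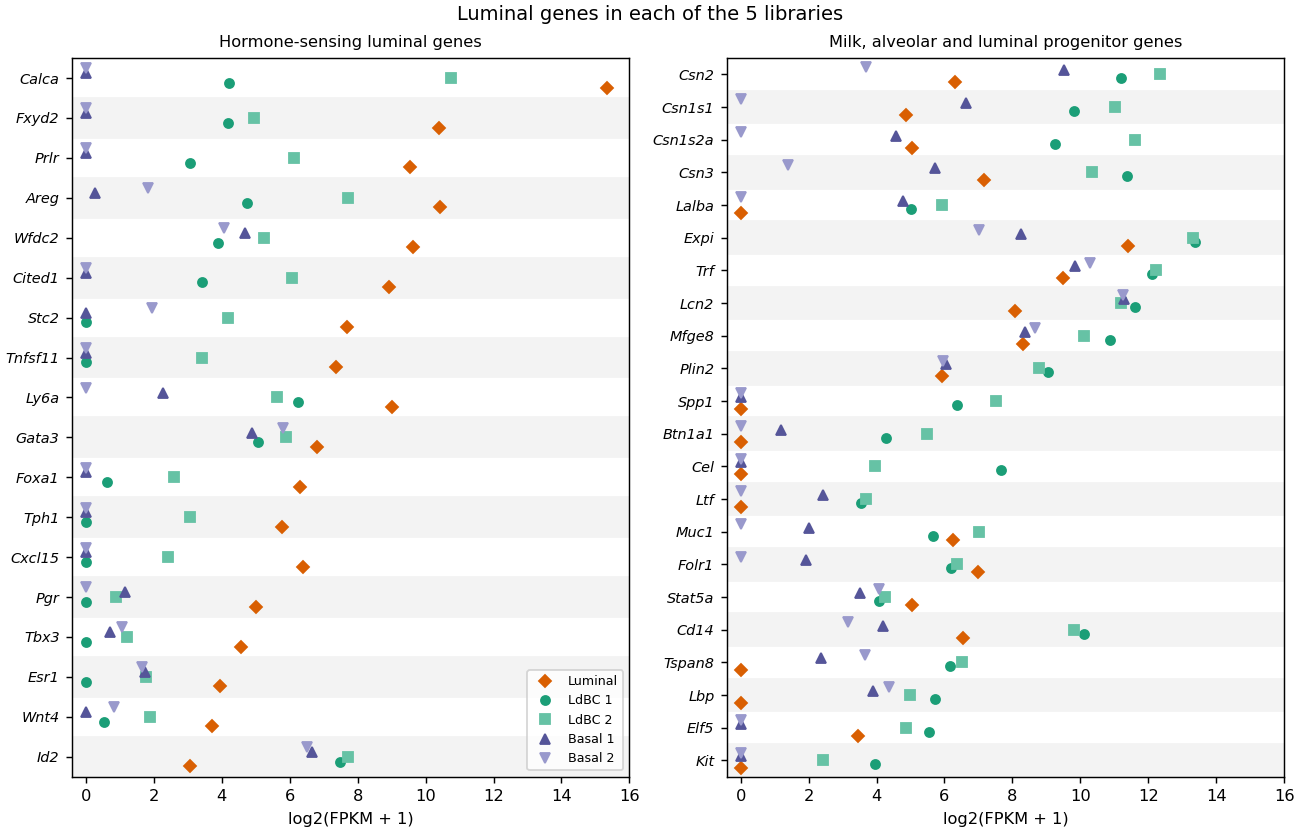
Expression as log2(FPKM + 1) in each of the 5 libraries for hormone-sensing genes (left) and for milk, alveolar and luminal progenitor genes (right), with 1 symbol per library. The luminal library is the highest for Calca, Fxyd2, Prlr and Areg, with LdBC replicate 2 above replicate 1. Both LdBC libraries lie above the luminal library for Csn2, Trf, Cd14 and Spp1.

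Some genes were high in both LdBC libraries and low in luminal and basal cells alike. Cck, which encodes the peptide hormone cholecystokinin (chromosome 9, 121489824 to 121495694, minus strand), reached 209 and 236 in LdBC, against 0 in the luminal library and 3.76 and 0 in basal cells. Car2, carbonic anhydrase 2, had 0.0926 against 116 and 172, with 2.29 and 0.0567 in basal cells. Both fell short of the threshold (limma with Benjamini-Hochberg adjusted p = 0.0553 for Cck and 0.0512 for Car2). Nqo1, a quinone reductase, rose from 0.109 to 66.7 and 46.0, with 8.18 and 5.68 in basal cells (difference 5.67, SE 0.54). Other genes were high in basal cells too. Gja1, the gap junction protein connexin 43 of basal cells, rose from 0.0507 to 81.6 and 199, with 231 and 351 in basal cells (difference 6.93, SE 0.68). Genes with general cellular roles were named by the same rule, such as the tRNA synthetase Eprs (0.127 against 51.4 and 47.7), the nuclear import factor Kpna2 (0.320 against 56.3 and 58.2) and the RNA helicase Ddx47 (0.0941 against 50.9 and 68.1). For these 3 the basal libraries had between 26.8 and 70.0, so the luminal library was the one that stood apart. These 3 are themselves among the 495 fold-rule genes above 0 in the luminal library, so that split does not set such values apart. The part of such values in the counts of genes called higher was not tested.

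The 70 oxidative phosphorylation subunits, which form the respiratory chain and ATP synthase, had a median difference of -1.12. For all genes that were likewise above 0 in the 3 libraries it was -0.49. Of the subunits 64 lay below the luminal library in both LdBC libraries, where 41.7% of all genes did. That share includes 2882 genes listed at 0 in the luminal library, which cannot lie below it, so it is not like for like. Limma called 3 lower (Ndufa1, Ndufb2 and Ndufb6, all of complex I) and 0 higher, and 0 passed the fold rule. Ndufa1 had 1020 against 292 and 331 (difference -1.71, SE 0.21). Median-of-ratios scaling moved the median of all genes by 0.27, and the list then stood at -0.72, while quantile normalization gave -0.62. Glycolysis was mixed, with 3 of 18 called higher (2.06% of all genes were), 0 lower and a median of 0.06. The calls were the glucose transporter Slc2a1 (74.9 against 497 and 399, difference 2.56, SE 0.26), the lactate dehydrogenase Ldhb (23.2 against 121 and 126) and the phosphofructokinase Pfkl (0.0837 against 33.8 and 41.3). The 72 cytosolic ribosomal protein genes had a median of 0.18 and 0 calls by limma, and 0.59 with median-of-ratios scaling. Of them 40 lay above the luminal library in both LdBC libraries, where 35% of all genes did. That share too includes the genes listed at 0 in the luminal library and is not like for like.

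Signalling and other short lists gave at most 1 call each, where 2.06% of all genes were called higher and 1.95% lower. In lists this short 1 call says little about the list. Of 15 Notch genes 1 was called lower, the inhibitor Hes6 (32.2 in the luminal library, listed at 0 in both LdBC libraries). The receptors Notch1 (0.127 against 8.81 and 5.72) and Notch3 (0 against 6.46 and 8.47) met the fold rule as higher, while the target Hes1 had 146 against 141 and 159. Of 10 EGF family genes 1 was called lower, the ligand Nrg4 (36.5 against 0 and 0.349), beside Erbb2 (59.2 against 10.8 and 18.0) and Erbb3 (5.17 against 27.8 and 22.4), which did not pass. Of 24 Wnt genes 0 were called, with 2 past the fold rule as higher, where 13.7% of all genes were (median difference of the list -0.20). Of 11 genes associated with epithelial to mesenchymal transition 1 was called higher, Snai2. The cadherin Cdh2 had 9.27 in the luminal library and was listed at 0 in both LdBC libraries. Vim had 0 against 0.0744 and 6.41. Of 23 immediate early and stress genes 1 was called higher, the chaperone Hspa8 (598 against 1674 and 1503, difference 1.41, SE 0.16), and the median was -0.43. Fos, an early response gene, had 1675 against 94.2 and 657. Of 13 interferon genes 1 was called lower, Oas2 (11.3, listed at 0 in both LdBC libraries), and Bst2 had 422 against 45.2 and 23.5. Of 15 proliferation genes and of 6 class II genes 0 were called. Of 20 fatty acid and sterol genes 1 was called higher, the squalene epoxidase Sqle (0.116 against 38.3 and 24.0).

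**Figure D4:**
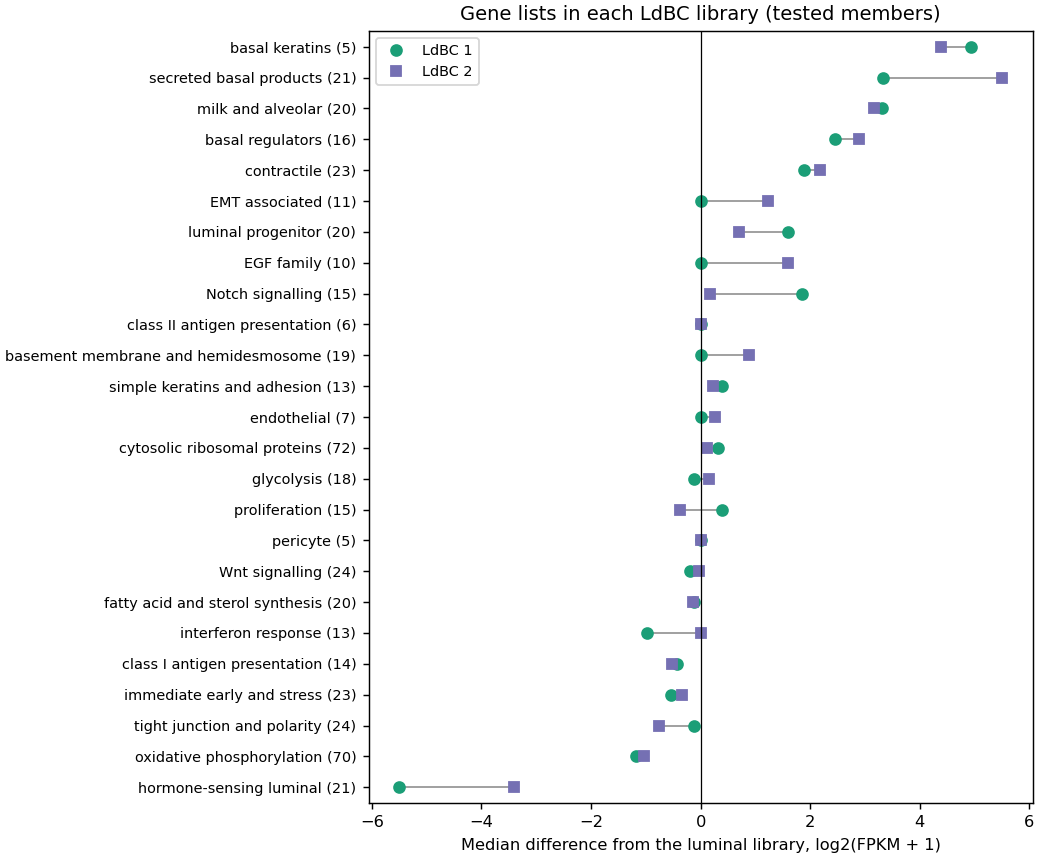
Median difference from the luminal library on log2(FPKM + 1) over the tested members of each gene list, shown for LdBC replicate 1 (circle) and replicate 2 (square), with the number of tested members in brackets, for lists with at least 5 of them. Basal keratins, secreted basal products and milk genes lie highest, and hormone-sensing genes lie lowest, at -5.50 and -3.41.

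Markers of cells outside the epithelium were low apart from single genes and the Schwann list, given last. The fibroblast list summed to 305 FPKM in the luminal library and to 29.5 and 67.7 in LdBC, nearly all of it Dcn (305 against 26.8 and 67.0), while Col1a2 and Col6a1 were at 0 in all 3 libraries. The endothelial list summed to 19.5 against 6.44 and 16.8, with Cldn5 at 0 in the luminal library and at most 0.199 in LdBC. The pericyte list summed to 14.4 against 19.7 and 16, with Rgs5 at 0, 0 and 5.24 and Cspg4 at 0 in all 3. The immune list summed to 33.1 against 26.6 and 26.4, with Lyz2 and Laptm5 at 0 in all 3. Alpha-globin, read jointly as Hba-a1Hba-a2, had 1249 in the luminal library and 1.02 and 23.3 in LdBC. Of the adipocyte list Fabp4 was measured (0 against 0 and 9.97). In the basal libraries, whose spread enters every test, Fabp4 had 473 and 0 and the endothelial list summed to 641 and 0.313. Without basal replicate 1 limma called 0 genes, as given above, with 2127 at an unadjusted p under 0.05. The genes Cdh5, Cd3e, Ptprc and Csf1r are not analysed here. Limma called 0 members of these lists, and the part of such cells in the results was not tested. Among the 4 Schwann genes tested, 1 was called higher, Sox10, which is also a basal gene, where 2.06% of all genes were. All 4 lay above the luminal library in both LdBC libraries, and 3 met the fold rule as higher (median difference 3.85). Of all genes 35% and 13.7% did so. Cnp (0 against 8.26 and 13.4), Pmp22 (0 against 4.79 and 54.4) and Mbp (14.6 against 24.3 and 26.5) did not pass. The part of Schwann cells in these values was not tested.

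Over all genes tested LdBC replicate 2 was above replicate 1 in 54.1% and below it in 41.6%. It was above by at least 2 log2 units in 1535 genes (14.4%) and below by as much in 764 (7.19%). Of 23 contractile genes 14 were higher in replicate 2 and 7 in replicate 1, and among 21 secreted basal products the numbers were again 14 and 7, a share not far from that of all genes. Of 20 luminal progenitor genes 9 were higher in replicate 2 and 11 in replicate 1. Of 15 proliferation genes 12 were higher in replicate 1, 6 of them by at least 2 log2 units, such as Ccnb2 (18.5 and 0.0901) and Mcm5 (13.8 and 0.0374). As a description over genes of shared libraries, which are no replicates, the rank correlation (Spearman) of the LdBC pair was 0.748, and replicates 1 and 2 had 0.576 and 0.631 with the luminal library.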

How the data were processed

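RNA of about 50 flow-sorted cells per library was amplified by a modified Smart-seq2 method and sequenced on an Illumina HiSeq instrument, per the labels' protocols. TopHat2 2.0.4, Cufflinks 2.0.2 and Cuffdiff 2.0.2 and build mm10 are named in the submitters' processing notes. The sources used here do not give the annotation, strand setting or molecular identifiers. Deposited values are log2(FPKM + 1) by the authors. With base 2, at least 99.69% of values above 1 return to an FPKM of 6 significant digits within 0.02 of the last digit. Rows with names turned into dates (18 of 12311) were left out, and 10953 of 12293 names are current RefSeq symbols.

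All 5 libraries (1 luminal, 2 LdBC, 2 basal) entered 1 fit in limma 3.58.1 (R 4.3.3) with an intensity trend and a mean per group, pseudocount 1, keeping genes whose FPKM averaged 1 or more. Residual degrees of freedom were 2, with 1.65 from the prior. Tests are two-sided, with Benjamini-Hochberg adjustment over every gene tested and calls under 0.05. The fit was tested on simulated data. Named genes are the 12 with the largest difference per direction (an FPKM of at least 20 in the higher group), the 8 highest listed at 0 in the other group, the 10 calls with the smallest p per direction, the given markers and the list members. Members, lists and rules were chosen with earlier results of these data known. Positions come from GENCODE M21 on GRCm38, the assembly of mm10. Fragments shared by keratin pseudogenes or other near-identical copies leave Krt8, Krt18 and Hba-a1Hba-a2 uncertain. Genes absent from this table are not analysed here. One gene that the naming rule gives is not reported here.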

Additional observations from a re-analysis of the deposited data

How the results depend on the processing

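No paired analysis was possible because the luminal group has 1 library and no replicate number of its own. Genes called higher and lower by limma (219 and 207) became 865 and 310 with a pseudocount of 0.1, 135 and 348 with a pseudocount of 5, 152 and 106 with median-of-ratios scaling, and 184 and 111 with quantile normalization. They became 4 and 0 with no filter on low values (Chi3l1, Krt14, Pdlim3 and Tagln; 3378 genes at an unadjusted p under 0.05), 485 and 303 at a mean FPKM of at least 5, 238 and 161 over genes above 0 in all 3 libraries, and 367 and 280 in limma without trend. With the LdBC and luminal libraries only, 0 and 0 passed (2074 unadjusted), and without any 1 LdBC or basal library the range was 0 to 0. The cause was not tested, but each of these last fits has 1 residual degree of freedom in place of 2. Genes past the fold rule (1454 higher, 1044 lower) became 357 and 561 with a pseudocount of 5, and 495 and 461 over genes above 0 in all 3 libraries. Leaving out 1 library gave 1454 to 2481 higher and 1048 to 2010 lower, where the highest counts come from 1 LdBC library alone. Over 194 genes and 13 alternatives, 2410 comparisons could be made, of which 422 lost a call, 101 gained one and 10 changed sign, in 6 genes. None of the 6 was called. With median-of-ratios scaling Epcam stood at 0.31, H2-K1 at 0.21 and Myl6 at 0.35, and with quantile normalization Epcam stood at 0.0031, Myl6 at 0.0047 and Cldn5 at -0.037. With 1 LdBC or basal library left out, differences ranged from -0.24 to 0.057 for Epcam, from -0.14 to 0.024 for Myl6, from -3.95 to 0.058 for Lamb3 and from -0.052 to 0.12 for Hes1, with the extremes set by leaving out an LdBC library. Of 351 list medians under the alternatives, 108 moved by more than the spread of the LdBC pair. Depth limits values near 0, which rest on single fragments.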
